A study of Zea mays with 9 samples.

Results

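Root tips of maize seedlings held at severe water deficit were compared with root tips of well-watered seedlings across the whole transcriptome. The 2 groups were chosen by their labels, severe water deficit at -1.6 MPa (replicates 1, 2 and 5) and well-watered at -0.02 MPa (replicates 1, 2 and 3), and together they make up 6 of the 9 RNA libraries; the other 3 came from a mild deficit and entered only the estimate of the spread. All seedlings were of the B73 inbred line, grown in the dark in vermiculite, and were harvested 26 h after transplanting to vermiculite of the stated water potential. Each library was prepared from polyadenylated RNA of 5 pooled apical segments, 1 cm long, of the primary root. The segment holds the root cap, the meristem and the elongation zone together, and the growing part of a root is known to shorten as water becomes scarce, so the same length of tissue need not hold the same mixture of cells. In such bulk samples fewer cells of a type and less RNA per cell cannot be told apart.

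When soil water is scarce, the primary root of maize keeps growing at its tip while the zone of elongation shortens. Abscisic acid (ABA), made from carotenoids, accumulates in the tip. It binds soluble receptors of the PYL family, which then hold back protein phosphatases 2C and so release kinases of the SnRK2 family. Cells also gather sugars, amino acids and ions as osmolytes, make hydrophilic proteins such as dehydrins, loosen or stiffen their walls, and scavenge reactive oxygen. Which of these processes was visible in the transcripts of the severely stressed tip, and which parts of the growth machinery were less abundant there, was the question that the comparison addressed.

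Of 39323 Gene IDs, 26048 had enough reads to be tested, and 14443 of them (55.4%) differed between severe deficit and well-watered root tips at a false discovery rate (FDR) below 0.05 in the edgeR quasi-likelihood test. In 16474 genes (63.2%) the 3 severe and 3 well-watered libraries did not overlap, called or not. The called genes were split almost evenly, with 7200 genes (27.6%) more abundant and 7243 genes (27.8%) less abundant under severe deficit. The sizes were not even: 3227 called genes were at least 2-fold higher under severe deficit and 710 at least 2-fold lower, and 1395 were at least 4-fold higher against 179 at least 4-fold lower. The median absolute log2 fold change of a called gene was 0.56, and the median over all genes tested was -0.01 with quartiles of -0.29 and 0.43. The even split rested on the TMM scaling of the libraries, since without it the median of all genes moved to 0.12 and 65.0% of called genes were higher, against 49.9% with it. Levels are given as TMM-scaled counts per 1e+06 reads (CPM), for severe replicates 1, 2 and 5 and for well-watered replicates 1, 2 and 3 in that order, fold changes are log2 of severe over well-watered, and errors of fold changes are standard errors of the fit.

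The libraries held 35.5 to 52.1 M reads (M, 1e+06) under severe deficit and 34.3 to 43.4 M reads well-watered. Reads fell on 31426 to 32574 genes in the severe libraries and on 30484 to 30798 genes in the well-watered ones. Severe replicate 2 stood apart from the other severe libraries. On the first principal component of log CPM over all 9 libraries, which held 73% of the variance, it lay at 119.2, against 70.5 and 86.1 for severe replicates 1 and 5 and between -67.9 and -60.9 for the well-watered libraries. It was the severe library farthest from the well-watered mean in 68.9% of the called genes. Without it 6601 genes were higher and 6646 lower. Root tissue was checked with marker lists: of 10 shoot and leaf markers 2 had enough reads to be tested, with summed levels of 6.01 to 7.80 CPM in severe and 4.52 to 5.00 CPM in well-watered libraries, and both were higher. Of 7 meristem and stem cell niche markers 5 were called lower and 1 higher, with a median log2 fold change of -0.30. Lower members included the cyclin genes cyc3 (-0.73), cyclin9 (-0.68), cyclin8 (-0.41) and cyclin4 (-0.20). These cyclins were also counted with the cell cycle regulators. The higher member was the homeobox gene wox5B (1.08 ± 0.23, FDR = 0.00169). The root hair gene rth3 was lower (-0.48 ± 0.07). The endodermal Casparian strip gene ZmCASP1 was higher at 16.8, 15.7 and 17.2 CPM against 4.64, 6.30 and 3.75 CPM, and 3 of 4 secondary wall xylem markers were higher. The part of these shifts in tissue markers in the results that follow was not tested.

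**Figure D1:**
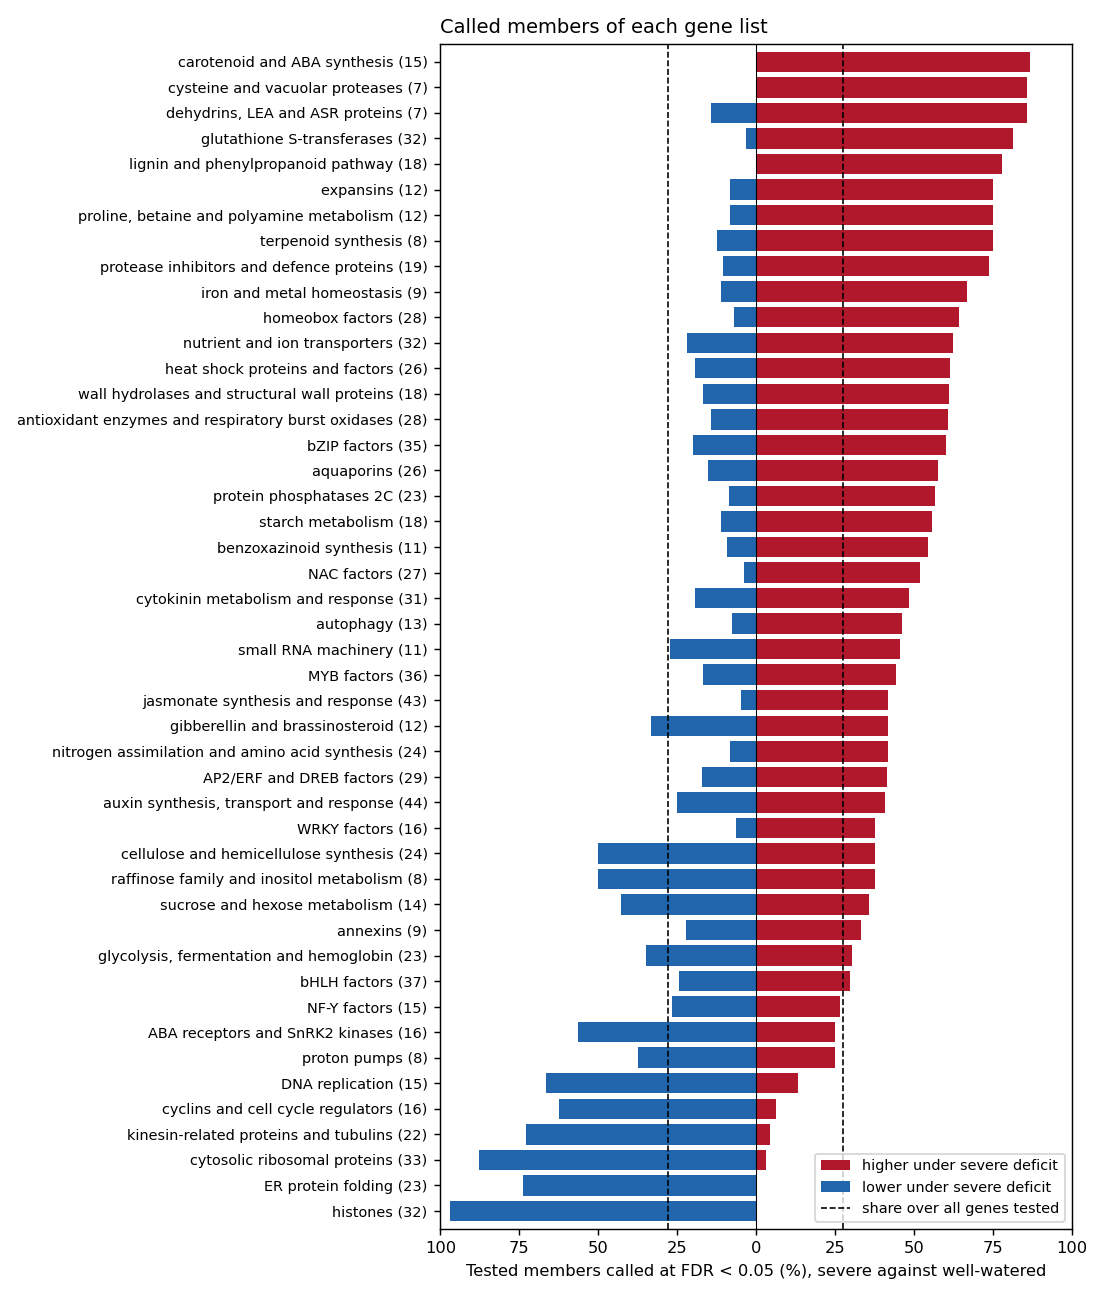
Percentage of the tested members of each gene list that were called at FDR below 0.05 under severe deficit against well-watered, for lists with at least 7 tested members (number tested in brackets): higher to the right in red, lower to the left in blue, with dashed lines at the shares over all genes tested, 27.6% and 27.8%. Carotenoid and ABA synthesis, with 13 of 15 higher, stood at the top and histones, with 31 of 32 lower, at the bottom.

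ABA synthesis had the largest share of members higher under severe deficit among lists with at least 7 tested members. Of 15 tested genes from the first carotenoid step to the last aldehyde oxidation, 13 were higher and 0 lower, with a median log2 fold change of 1.05, beside 27.6% of all genes higher and a median of -0.01. The gene vp14 (chromosome 1, 250953388 to 250956063 of B73 RefGen_v3) encodes the 9-cis-epoxycarotenoid dioxygenase that cleaves the carotenoid precursor, a limiting step of ABA synthesis. It had 13.2, 22.3 and 15.9 CPM in severe libraries, against 2.85, 2.36 and 1.82 CPM in well-watered ones, a log2 fold change of 2.88 ± 0.20 (FDR = 5.63e-07). The groups were far apart, and severe replicate 2 was the highest library. Upstream, phytoene synthase PSY1 was higher by 3.64 ± 0.58 (4.94 without well-watered replicate 3) but reached a mean of only 1.31 ± 0.61 CPM (SD, n = 3) under severe deficit, and the beta-carotene hydroxylase gene BCH2 rose to 4.79, 7.64 and 8.81 CPM, against 1.33, 1.25 and 1.34 CPM. The aldehyde oxidase AO1 had the highest CPM of the list and a smaller rise, 223, 212 and 223 CPM against 149, 141 and 145 CPM, or 0.60 ± 0.06 (FDR = 5.96e-06).

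Transcripts of the ABA receptors went the other way. Of 9 PYL receptor genes tested, 6 were lower and 1 higher, with a median of -1.07, and 4 of them were among the 15 largest falls of all genes with a known name and a mean of at least 5 CPM in either group. PYL7 (chromosome 1, 46236786 to 46238037) had 3.74, 3.77 and 3.39 CPM in severe libraries, against 65.8, 66.4 and 59.4 CPM in well-watered ones. PYL5 (chromosome 9, 137279301 to 137280649) had 1.27, 1.20 and 1.70 CPM in severe libraries, against 28.9, 25.2 and 20.9 CPM in well-watered ones. Within each group the 3 libraries of these genes were close together, and severe replicate 2 did not stand apart. The log2 fold changes were -4.13 ± 0.14 for PYL7 (FDR = 2.80e-09) and -4.19 ± 0.21 for PYL5 (FDR = 4.66e-08), levels 17.5 and 18.2 times lower. A pair of genes that the reference both calls PYL3, GRMZM2G047677 and GRMZM2G154987, fell by 2.09 and by 1.80 on the log2 scale. Per transcript length PYL7 was the most abundant of these 4 receptors in both groups, at a mean of 4.83 TPM (a length-scaled level) under severe deficit and 75.9 TPM well-watered.

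Protein phosphatases 2C, the family that holds the targets of the receptors, were listed by their symbols and not by known binding to a receptor. Of 23 genes tested, 13 were higher and 2 lower (median 0.74), and 10 of the 13 were at least 2-fold higher. PP2C11 (chromosome 7, 89059718 to 89061311) had 33.4, 35.5 and 33.9 CPM in severe libraries, against 0.970, 0.842 and 1.09 CPM in well-watered ones. The libraries of each group lay close together and the groups far apart, with a log2 fold change of 5.14 ± 0.12 (FDR = 2.98e-10). PP2C13 reached 8.04, 15.5 and 9.21 CPM under severe deficit and had 1636 reads there, against 1 read in the well-watered libraries together, a ratio of 1292 whose exact 95% interval for counting error ran from 232 to 51060. Without well-watered replicate 3, which held that read, it was at least 278-fold higher with 3 reads over the group as the floor. PP2C12 was higher by 5.31 ± 0.49. PP2C22 fell furthest of the 2 lower members, to 32.5, 33.9 and 31.1 CPM, against 41.9, 41.8 and 39.8 CPM. A further 8 members were not called.

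The SnRK2 kinases, which transmit the signal, had 3 of 7 higher and 3 lower, a small list beside 27.6% and 27.8% of all genes. The lower ones fell by small log2 fold changes, none beyond -0.30. Together with the receptors the SnRK2 kinases were 4 higher and 9 lower of 16, and 4 higher and 6 lower without TMM scaling. SnRK2.1 had 9.43, 12.2 and 11.5 CPM, against 1.61, 2.36 and 2.60 CPM (2.32 ± 0.19, FDR = 1.57e-06). SnRK2.7, the member with the highest CPM, did not pass the test, with 137, 111 and 138 CPM under severe deficit and 141, 137 and 153 CPM well-watered, which overlapped.

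Dehydrins, late embryogenesis abundant (LEA) proteins and ASR proteins are hydrophilic and protect membranes and enzymes in drying cells. Of 7 tested, 6 were higher and 1 lower, with a median log2 fold change of 2.13. The gene asr1 encodes an ABA-, stress- and ripening-induced protein and was among the 10 called genes with the largest rise in CPM, with 889, 1050 and 878 CPM in severe libraries, against 236, 225 and 184 CPM in well-watered ones (2.13 ± 0.11, FDR = 4.40e-08). The gene dehydrin3 was higher still in level but less changed, at 1638, 1526 and 1600 CPM, against 913, 947 and 965 CPM (0.75 ± 0.07). EMB5, an embryo LEA protein gene, rose to 9.47, 15.5 and 11.8 CPM, against 0.455, 0.168 and 0.389 CPM. The gene dhn1, also known as rab17, an ABA-responsive dehydrin, had 5.44, 199 and 11.4 CPM, against 0.515, 0.433 and 0.389 CPM, so that its size rested on severe replicate 2 although all 3 severe libraries lay above the well-watered ones (7.35 ± 1.47, FDR = 0.00121, and 4.22 without that library). The exception was dehydrin7, with 90.6, 80.8 and 90.8 CPM under severe deficit and 104, 102 and 107 CPM well-watered.

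**Figure D2:**
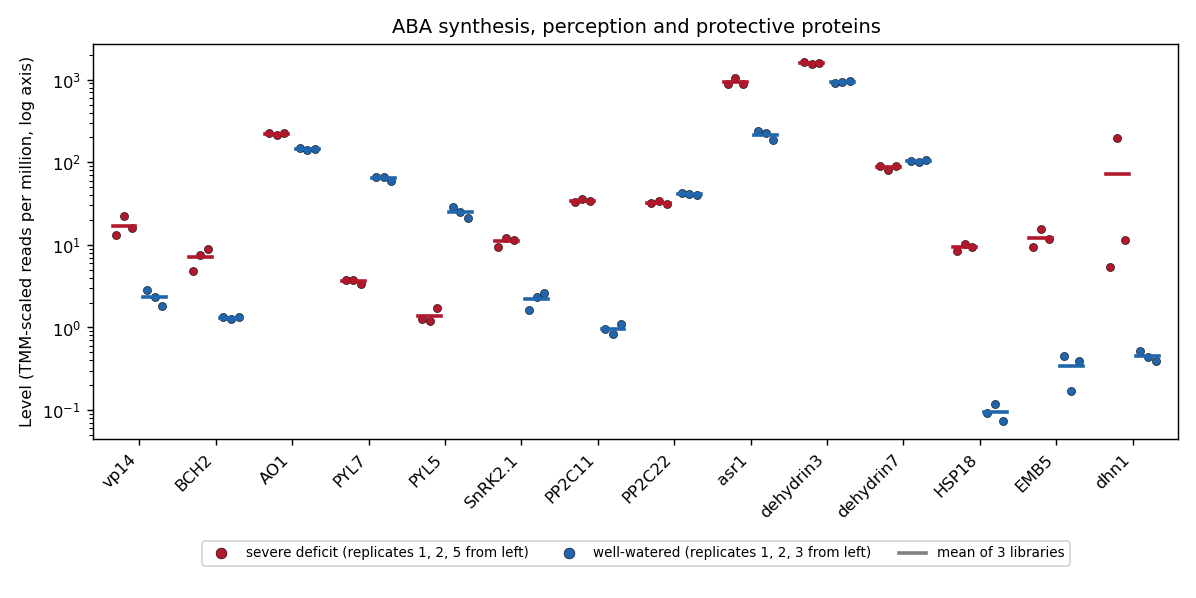
Level in each library, in CPM on a log axis, of genes of ABA synthesis and perception and of protective proteins; red points are the severe deficit libraries, blue points the well-watered libraries and short lines the group means. PYL7 and PYL5 lie far lower under severe deficit, PP2C11 and HSP18 far higher, and dhn1 spreads between 5.44 and 199 CPM within the severe group.

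Chaperones help proteins fold in the cytosol, the organelles and the endoplasmic reticulum (ER). Among 26 heat shock proteins and heat shock factors, 16 were higher and 5 lower, and the members named here with the largest rises had low levels. HSP18, a small heat shock protein gene, had 8.38, 10.3 and 9.34 CPM in severe libraries, against 0.0910, 0.120 and 0.0730 CPM in well-watered ones (6.58 ± 0.24, FDR = 3.87e-09), and hsp82, an HSP90 gene, rose to 2.68, 7.92 and 5.04 CPM, against 0.606, 0.577 and 0.511 CPM. The member of highest CPM was lower: hsp70-4, an HSP70 gene, had 2635, 2404 and 2753 CPM, against 3255, 3265 and 3404 CPM (-0.35 ± 0.08, FDR = 0.00257), and the chaperonin gene HSP60-1 (GRMZM2G111477) had 198, 146 and 167 CPM, against 288, 274 and 276 CPM. Not all abundant members fell: Hsp70 (GRMZM2G310431), chosen after its values were seen, rose to a mean of 173 CPM, against 33.2 CPM (2.38 ± 0.11). Summed over the list, the level was 4565 to 5086 CPM under severe deficit, against 5831 to 6051 CPM well-watered. Of 23 genes of ER protein folding, 0 were higher and 17 lower with a median of -0.30. Without TMM scaling the counts in this list were 2 higher and 13 lower. Calreticulin crt2, a calcium-binding chaperone, had 1035, 843 and 991 CPM, against 1375, 1413 and 1363 CPM (-0.53 ± 0.08). The ER HSP70 gene bip1 had 720, 534 and 680 CPM, against 964, 935 and 924 CPM (-0.55 ± 0.10), and severe replicate 2 was the lowest library for both.

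Genes of osmolyte synthesis and breakdown were raised in part. Of 12 genes of proline, betaine and polyamine metabolism, 9 were higher and 1 lower. GAD, a glutamate decarboxylase gene, whose enzyme makes gamma-aminobutyrate, had 184, 300 and 184 CPM in severe libraries, against 7.28, 12.6 and 8.90 CPM in well-watered ones (4.53 ± 0.23, FDR = 4.72e-08). The spermidine synthase gene spds2 rose to 36.3, 76.7 and 41.0 CPM, against 12.3, 7.74 and 7.49 CPM, and ALDH12 (GRMZM2G090245), whose product oxidises the intermediate of proline breakdown, to 7.24, 12.4 and 7.43 CPM, against 0.728, 1.06 and 1.02 CPM. Another gene of the name ALDH12, GRMZM2G090087, chosen after its values were seen, had a smaller rise at a higher CPM, with 350, 327 and 329 CPM, against 210, 199 and 199 CPM (0.73 ± 0.07). The polyamine oxidase MPAO was lower, at 351, 261 and 307 CPM, against 408, 424 and 396 CPM. In the raffinose family, sugars that store and protect, 3 of 8 genes were higher and 4 lower, beside 27.6% and 27.8% of all genes. The largest fold change was in gols2, a galactinol synthase gene of their synthesis (5.52 ± 0.74, FDR = 7.08e-05). It had 1.16, 6.39 and 2.37 CPM, against 0.0910, 0.0240 and 0.0973 CPM, and severe replicate 2 was the highest library. The alkaline alpha-galactosidase gene AGA1 is of a family that breaks such sugars down. AGA1 had 940, 1619 and 1054 CPM, against 41.0, 52.7 and 57.1 CPM, the second largest rise in CPM of all called genes (4.58 ± 0.22, FDR = 4.11e-08). Its relatives AGA2 (-1.27 ± 0.12), AGA3a (-1.19 ± 0.10) and AGA3b (-1.03 ± 0.08) were all lower.

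Sugar metabolism was mixed as a group, with 5 of 14 genes of sucrose and hexose metabolism higher and 6 lower. Their median was -0.06, and 27.6% and 27.8% of all genes were higher and lower. The sucrose synthase gene sus2 rose to 15.9, 56.4 and 21.9 CPM, against 1.12, 1.76 and 2.02 CPM (4.25 ± 0.45, and 3.50 without severe replicate 2), and the sucrose transporter gene sut1 to 103, 74.7 and 97.5 CPM, against 45.1, 40.0 and 39.8 CPM (1.14 ± 0.11). The fructokinase gene frk2 fell to 532, 462 and 542 CPM, against 1016, 1019 and 1004 CPM (-0.98 ± 0.09, FDR = 4.02e-06), and the sucrose phosphatase gene SPP2 to 7.84, 7.91 and 9.51 CPM, against 35.4, 35.6 and 32.1 CPM (-2.03 ± 0.09). The soluble acid invertase gene ivr2, the most abundant in CPM, did not pass the test, at 1220, 1065 and 1226 CPM, against 1212, 1431 and 1304 CPM. In starch metabolism 10 of 18 genes were higher and 2 lower. The higher ones included AGP2, a subunit of ADP-glucose pyrophosphorylase (2.14 ± 0.14), and the starch branching enzyme gene ae1 (1.91 ± 0.13). The lower ones included bt1, at a low level, with 2 reads in the severe libraries together, against 84 reads in the well-watered ones. Its ratio was 53.2, with an exact 95% interval for counting error from 14.3 to 446. Glycolysis and fermentation had 7 genes higher and 8 lower of 23, near the 27.6% and 27.8% of all genes. GAPC (GRMZM2G071630), a cytosolic glyceraldehyde-3-phosphate dehydrogenase gene, was among the 10 largest falls in CPM of called genes, at 1309, 879 and 1123 CPM, against 1908, 1875 and 1853 CPM (-0.77 ± 0.12). The phosphoenolpyruvate carboxykinase gene pck2 fell to 7.02, 15.3 and 9.34 CPM, against 26.6, 43.6 and 39.5 CPM.

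Nitrogen assimilation held some of the largest rises. Of 24 genes 10 were higher and 2 lower with a median of 0.08, but 7 of the 10 were at least 2-fold higher. The gene asn3 (chromosome 1, 45118780 to 45122813) encodes an asparagine synthetase, which makes the amide used to store and move nitrogen. It had 248, 496 and 355 CPM in severe libraries, against 3.31 to 7.22 CPM in the 3 well-watered ones (6.24 ± 0.35, FDR = 8.67e-08). The glutamine synthetase gene gln2 had 135, 242 and 182 CPM, against 3.85, 3.39 and 3.67 CPM (5.68 ± 0.21, FDR = 3.87e-09). For both genes all 3 severe libraries lay far above the well-watered ones, and severe replicate 2 was the highest. A further asparagine synthetase gene, asn2, was also higher (5.30 ± 0.32), at a mean of 9.70 ± 2.71 CPM (SD, n = 3) against 0.242 ± 0.144 CPM, whereas asn1 was lower, at 79.7, 64.9 and 68.6 CPM, against 103, 102 and 105 CPM.

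Channels and carriers were raised more often than lowered. Of 26 aquaporins, which let water or small solutes through membranes, 15 were higher and 4 lower with a median of 0.45. NIP2-1, also called Lsi1, a silicon influx channel (chromosome 5, 206972501 to 206976357), had 68.4, 88.2 and 70.7 CPM in severe libraries, against 1.39, 1.37 and 1.65 CPM in well-watered ones (5.68 ± 0.13, FDR = 2.98e-10). Its relative NIP2-2 moved the opposite way, with 60.5, 35.2 and 44.4 CPM, against 98.6, 121 and 102 CPM (-1.20 ± 0.16). Per transcript length, NIP2-1 stood at 67.1 TPM and NIP2-2 at 43.9 TPM under severe deficit, against 1.16 TPM for NIP2-1 and 90.5 TPM for NIP2-2 well-watered, so that the pair stood in opposite order in the groups. The plasma membrane intrinsic proteins, the main water channels of the cell surface, had 5 of 11 higher and 1 lower, and the tonoplast intrinsic proteins of the vacuole 5 of 8 higher and 1 lower. PIP1-1, the aquaporin gene of highest CPM, had 2402, 2305 and 2426 CPM, against 2173, 2388 and 2169 CPM, which overlapped and did not pass the test, although it did, at a log2 fold change of 0.21, without TMM scaling.

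Of 32 nutrient and ion transporters, 20 were higher and 7 lower. The high-affinity potassium transporter gene HAK1 fell to 65.5, 54.6 and 61.6 CPM, against 98.0, 125 and 112 CPM (-0.88 ± 0.09), and NAR2.1, the partner protein of high-affinity nitrate transporters, fell to 9.07, 10.9 and 11.0 CPM, against 26.2, 32.6 and 32.0 CPM (-1.55 ± 0.10, FDR = 2.72e-07). The silicon efflux gene Lsi2 was detected at 0.430, 0.912 and 0.377 CPM under severe deficit, 88 reads in all, against 2 reads in the well-watered libraries, a ratio of 34.7, and at least 14.8-fold higher without well-watered replicate 2, which held both reads. In iron and metal homeostasis 6 of 9 genes were higher, with the iron store ferritin, fer1, at 346, 361 and 371 CPM, against 208, 214 and 208 CPM (0.78 ± 0.06), and the yellow stripe-like carrier gene ysl14A at 39.3, 46.0 and 44.1 CPM, against 18.8, 17.5 and 18.9 CPM. Proton pumps were divided: the plasma membrane ATPase genes mha4 (-0.46 ± 0.07) and mha2 (-0.44 ± 0.07) were lower, and the pyrophosphatase gene vpp1 was higher, at 30.8, 44.9 and 34.0 CPM, against 15.3, 17.5 and 14.9 CPM.

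**Figure D3:**
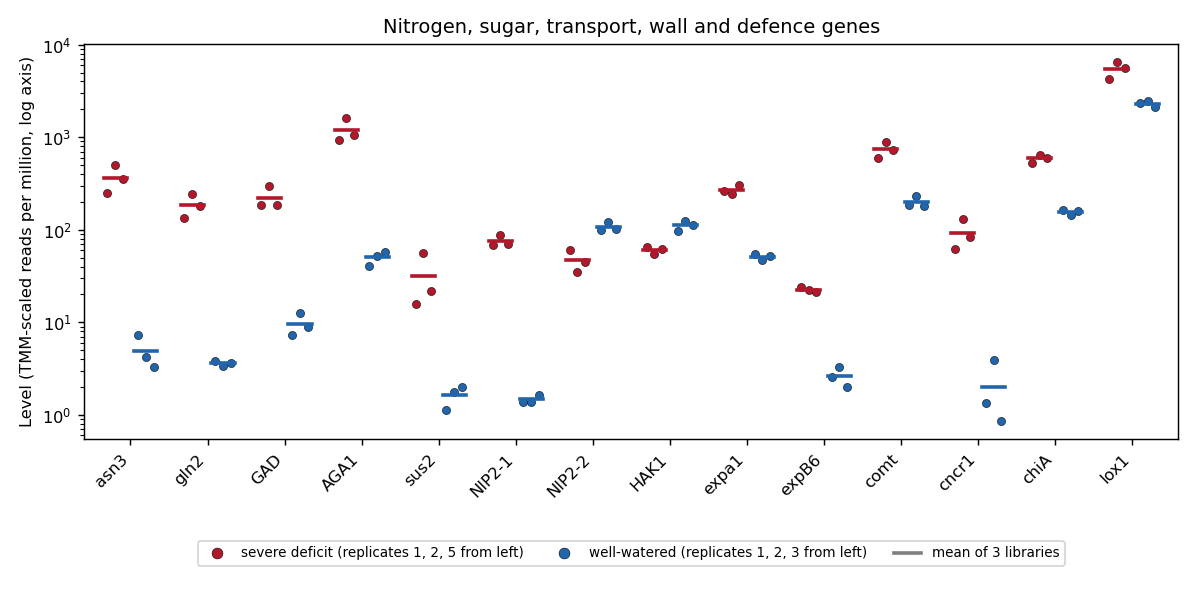
Level in each library, in CPM on a log axis, of genes of nitrogen and sugar metabolism, transport, the wall and defence; red points are the severe deficit libraries, blue points the well-watered libraries and short lines the group means. Of the 14 genes plotted, asn3, gln2 and NIP2-1 had the largest fold changes, with severe levels of 68.4 CPM or more in every library, and NIP2-2 and HAK1 are lower under severe deficit.

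Genes of wall loosening were mostly higher. Expansins loosen the wall of growing cells without cutting it, and 9 of 12 were higher and 1 lower under severe deficit, with a median of 0.71. Without severe replicate 2 they were 11 higher and 0 lower, the same counts as without TMM scaling. The alpha-expansin gene expa1 had 265, 241 and 306 CPM in severe libraries, against 54.4, 47.7 and 51.5 CPM in well-watered ones (2.40 ± 0.12, FDR = 4.57e-08). The beta-expansin genes expB6 and expB7 were also higher, expB6 at 23.9, 22.3 and 21.0 CPM against 2.58, 3.27 and 2.02 CPM, and expB7 at 7.54, 6.06 and 7.84 CPM against 0.637, 0.481 and 0.486 CPM. The groups did not overlap in these 3 genes, nor did they in 14103 of the 14443 called genes. Severe replicate 2 was not the highest library for any of the 3. Among wall hydrolases and structural wall proteins 11 of 18 were higher and 3 lower. BURP3, named for its BURP domain, had the third largest rise in CPM of called genes, at 621, 1999 and 911 CPM, against 128, 132 and 71.9 CPM (3.41 ± 0.38, and 2.79 without severe replicate 2).

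Polysaccharide synthesis was divided, and lignin synthesis was not. Of 24 genes of cellulose and hemicellulose synthesis, 9 were higher and 12 lower (median -0.26), beside 27.6% and 27.8% of all genes. The secondary wall cellulose synthase genes were higher: cesa11 (GRMZM2G037413) had 83.2, 106 and 64.1 CPM, against 33.8, 43.0 and 25.8 CPM (1.31 ± 0.19), CesA12 was higher by 0.81 ± 0.12 and cesa10 by 0.43 ± 0.08. The COBRA-like gene bk2, known for brittle stalks in its mutant, rose to 13.1, 29.3 and 15.7 CPM, against 3.27, 3.51 and 2.46 CPM (2.66 ± 0.27). The xylan arabinosyltransferase gene XAT2 fell to 64.0, 59.8 and 62.3 CPM, against 129, 133 and 117 CPM (-1.03 ± 0.07, FDR = 6.00e-07). In the lignin and phenylpropanoid pathway 14 of 18 genes were higher and 0 lower, with a median of 1.55, and 11 were at least 2-fold higher. The caffeic acid O-methyltransferase gene comt was among the 10 largest rises in CPM of called genes, at 595, 887 and 734 CPM, against 185, 233 and 182 CPM (1.89 ± 0.14, FDR = 6.19e-07). The cinnamoyl-CoA reductase gene cncr1 had 61.9, 132 and 82.8 CPM, against 1.33, 3.87 and 0.851 CPM (5.48 ± 0.40, and 6.43 without well-watered replicate 2). Laccase-13 (GRMZM2G132169), of the family that polymerises lignin, had 0.748, 14.6 and 2.37 CPM under severe deficit and 0 reads in the well-watered libraries, at least 248-fold higher with 3 reads over the group as the floor, and at least 54.5-fold without severe replicate 2. For these 3 lignin genes severe replicate 2 was the highest library.

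The machinery of growth and division was lower by small and even amounts. All 32 histone genes tested had negative fold changes, between -0.73 and -0.15, and 31 of them were called lower, beside 27.8% of all genes. Their summed level was 5135 to 6151 CPM under severe deficit, against 7811 to 8219 CPM well-watered. H4C7, a histone H4 gene, had 183, 158 and 190 CPM, against 282, 282 and 303 CPM (-0.70 ± 0.08, FDR = 1.78e-05). The linker histone gene hon110 had 631, 591 and 681 CPM, against 837, 880 and 875 CPM (-0.45 ± 0.08). The H4 genes are near-identical copies of each other, as are the H3 genes, so the split of reads within each family is uncertain. In DNA replication 10 of 15 genes were lower. The sliding clamp gene PCNA had 48.8, 41.9 and 49.9 CPM, against 76.0, 80.8 and 81.2 CPM (-0.76 ± 0.07). The exceptions were subunits of ribonucleotide reductase, which makes deoxyribonucleotides: RNRS2 had 10.8, 12.5 and 13.1 CPM, against 5.79, 5.87 and 5.30 CPM (1.10 ± 0.10), and RNRL1 rose by 2.47 ± 0.49 at a mean of 0.942 CPM. Cyclins and cell cycle regulators had 10 of 16 lower and 1 higher, the one being cycD1, a D-type cyclin gene, at 5.22, 6.08 and 6.19 CPM, against 1.64 to 2.53 CPM.

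Ribosomal proteins and the cytoskeleton followed the same direction. Of 33 cytosolic ribosomal protein genes 29 were lower and 1 higher, with a median of -0.59, the lowest median of the 50 lists. Their summed level was 6131 to 7319 CPM, against 10069 to 10504 CPM well-watered. RP-P0, an acidic stalk protein gene, had 968, 812 and 958 CPM, against 1299, 1291 and 1281 CPM (-0.50 ± 0.08), and rpp2a-2 had 146, 112 and 132 CPM, against 248, 233 and 244 CPM (-0.89 ± 0.09, FDR = 6.68e-06). Tubulins, the subunits of microtubules, had 11 of 15 lower and 0 higher. TUBA2 showed the largest fall in CPM of all called genes, to 3794, 3210 and 3745 CPM, against 4911, 5024 and 4875 CPM, although its log2 fold change was only -0.46 ± 0.09 (FDR = 8.59e-04). TUBA5 fell to 272, 184 and 242 CPM, against 484, 532 and 492 CPM (-1.11 ± 0.12). Larger falls were seen in 2 genes of the actin cytoskeleton: Actin-7 (GRMZM2G082484) had 108, 55.1 and 77.6 CPM, against 332, 363 and 322 CPM (-2.08 ± 0.18, FDR = 2.61e-06), and Profilin, which binds actin monomers, had 94.9, 55.1 and 68.3 CPM, against 236, 265 and 238 CPM (-1.76 ± 0.16). Severe replicate 2 was the lowest severe library for all 6 of these genes. The groups did not overlap for any of them, nor did they in 14103 of the 14443 called genes. Actin-7 and Profilin were picked by a rule that required it.

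**Figure D4:**
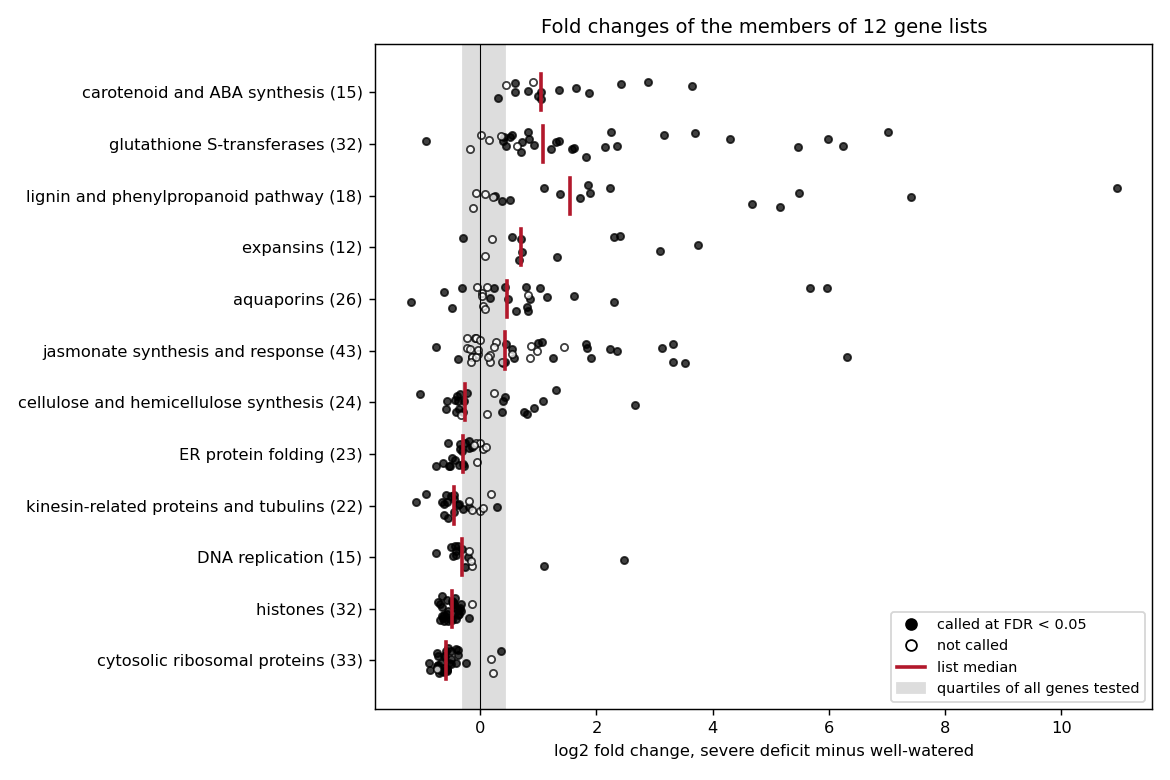
Fitted log2 fold change, severe deficit minus well-watered, of the tested members of 12 gene lists (number in brackets): filled points were called at FDR below 0.05, open points were not, red ticks are list medians and the grey band spans the quartiles of all genes tested, from -0.29 to 0.43. Histones and ribosomal proteins cluster just below 0, while glutathione S-transferases and lignin genes spread far to the right; the point near 11 is Laccase-13, whose fitted value depends on 0 reads in the well-watered libraries.

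Glutathione S-transferases, which join glutathione to reactive molecules, rose broadly. Of 32 tested, 26 were higher and 1 lower, with a median of 1.07, and 16 were at least 2-fold higher. The abundant member gst1 had 2474, 2510 and 2544 CPM in severe libraries, against 1813, 1672 and 1695 CPM in well-watered ones (0.54 ± 0.07, FDR = 7.07e-05), the fourth largest rise in CPM of all called genes. The largest folds were in members that were nearly silent in well-watered tips: In2-1, known as inducible by herbicide safeners, had 8.79, 9.39 and 23.6 CPM, against 0, 0.0721 and 0.219 CPM, and gst8 had 7.24, 7.91 and 15.2 CPM, against 0.0910, 0.216 and 0.0730 CPM. The log2 fold change of In2-1 was 7.02 ± 0.59, and 6.43 to 8.33 with 1 library left out; that of gst8 was 6.24 ± 0.49, and 6.91 without well-watered replicate 2. For both, severe replicate 5 rather than replicate 2 was the highest. GST38 was the member that fell, to 12.3, 8.60 and 9.96 CPM, against 18.7, 19.6 and 20.2 CPM. Among antioxidant enzymes and respiratory burst oxidases 17 of 28 were higher and 4 lower, with smaller changes (median 0.31): the catalase gene CAT3 rose to 10.5, 21.3 and 11.0 CPM, against 5.61, 6.23 and 5.76 CPM, and the dehydroascorbate reductase gene dhar3 to 23.4, 31.0 and 23.2 CPM, against 12.7, 14.3 and 14.4 CPM.

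Hormone genes other than those of ABA were divided. Jasmonate and related oxylipins are made from fatty acids by lipoxygenases and are known for wound and defence responses. Of 43 tested genes 18 were higher and 2 lower, and 13 of the 18 were at least 2-fold higher. The lipoxygenase gene lox1 showed the largest rise in CPM of all called genes, to 4296, 6500 and 5658 CPM, against 2327, 2490 and 2115 CPM (1.25 ± 0.14, FDR = 1.43e-05). The gene lox3 had 124, 352 and 185 CPM, against 21.7, 24.4 and 20.2 CPM (3.32 ± 0.30), and the oxophytodienoate reductase gene opr2 had 5.01, 7.21 and 6.76 CPM, against 1.15, 0.192 and 0.389 CPM (3.52 ± 0.39, and 4.44 without well-watered replicate 1). The gene lox10, with 0.935, 16.8 and 1.45 CPM against 0.0606, 0.0721 and 0.0973 CPM, was high mainly in severe replicate 2 (6.32, FDR = 0.00118, and 3.87 without it). Without that library the list had 17 higher and 5 lower. Auxin genes had 18 higher and 11 lower of 44 with a median of 0.18, beside 27.6% and 27.8% of all genes. The higher ones included AUX10 (3.03 ± 0.24) and AUX27 (2.47 ± 0.21). Without TMM scaling 20 auxin genes were higher and 6 lower. Of 31 cytokinin genes, 15 were higher and 6 lower, with a median of 0.17. HK1b1, a histidine kinase gene, rose to 30.1, 38.7 and 29.2 CPM, against 8.97, 10.2 and 10.0 CPM, and the zeatin O-glucosyltransferase gene czog1 to 5.59, 7.24 and 7.35 CPM, against 1.00, 0.817 and 0.924 CPM, while the cytokinin oxidase gene cko1 fell to 3.22, 2.88 and 2.50 CPM, against 6.28, 6.42 and 5.55 CPM.

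In gibberellin and brassinosteroid genes 5 of 12 were higher and 4 lower, a small list beside the 27.6% and 27.8% of all genes. DWF1, of sterol and brassinosteroid synthesis, had 871, 693 and 870 CPM, against 1377, 1349 and 1422 CPM (-0.77 ± 0.10, FDR = 5.66e-05). The gene an1, of the first committed step of gibberellin synthesis, rose by 3.70 ± 0.43 at a mean of 2.57 CPM under severe deficit, and the dwarf gene d3 by 1.47 ± 0.26 at a mean of 2.30 CPM. Ethylene was represented by 6 genes, of which 2 were higher and 2 lower, near the shares of all genes. The receptor gene etr2 fell to 28.0, 29.1 and 26.2 CPM, against 41.2, 43.4 and 40.4 CPM. The receptor gene ERS14 rose to 17.7, 19.0 and 18.9 CPM, against 13.2, 13.9 and 12.9 CPM. The ACC synthase gene acs7 fell to a mean of 2.52 ± 0.264 CPM, against 5.31 ± 0.409 CPM (SD, n = 3 each).

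Several transcription factor families had more members higher than lower, beside 27.6% of all genes higher and 27.8% lower. Median log2 fold changes were 0.51 for homeobox, 0.35 for NAC, 0.34 for bZIP, 0.34 for AP2/ERF, 0.23 for MYB and 0.11 for WRKY factors. All but the homeobox median lay inside the quartiles of all genes, -0.29 and 0.43. Homeobox factors had 18 of 28 higher and 2 lower, bZIP factors 21 of 35 higher and 7 lower, NAC factors 14 of 27 higher and 1 lower, MYB factors 16 of 36 higher and 6 lower (18 and 3 without TMM scaling), and AP2/ERF factors 12 of 29 higher and 5 lower. Of 16 WRKY factors 6 were higher and 1 lower (5 and 2 without severe replicate 2, 8 and 0 without TMM scaling), and bHLH factors, with 11 higher and 9 lower of 37, were close to the shares of all genes. NF-Y factors, with 4 higher and 4 lower of 15 and a median of -0.05, were near those shares as well. The NAC gene GRMZM2G336533, called NAC1 in the reference, had 38.8, 65.0 and 50.6 CPM in severe libraries, against 3.64, 1.18 and 0.803 CPM in well-watered ones (4.85 ± 0.36, FDR = 8.50e-07, and 5.70 without well-watered replicate 1). MYB165 had 51.7, 58.3 and 48.0 CPM, against 6.67, 5.17 and 5.79 CPM (3.17 ± 0.10, FDR = 2.31e-09). The gene dbf1, a factor that binds the drought-responsive element, had 54.5, 97.6 and 65.6 CPM, against 12.5, 11.7 and 16.4 CPM (2.42 ± 0.22). In all 3 genes the severe libraries lay far above the well-watered ones. Other factors that rose included the homeodomain-leucine zipper gene hdz10 (2.42 ± 0.15), NAC20 (3.20 ± 0.18), bHLH105 (2.90 ± 0.15), bZIP9 (2.83 ± 0.28), WRKY42 (2.44 ± 0.25) and NF-YA7, a CCAAT-binding subunit (2.63 ± 0.32). NF-YA4, of the same family as NF-YA7, fell (-0.79 ± 0.15). The factor gene bZip112 fell to 1.35, 2.56 and 0.969 CPM, against 15.0, 18.0 and 14.4 CPM (-3.24 ± 0.24). It had the fourth largest fall among called, non-overlapping genes with a known name and a mean of at least 5 CPM. At a lower level the homeobox gene ocl4 fell further, with 1 read in the severe libraries, against 43 reads in the well-watered ones. Its ratio was 54.5, with an exact 95% interval for counting error from 9.27 to 2200.

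Defence genes rose broadly. Of 19 protease inhibitors and defence proteins 14 were higher and 2 lower, with a median of 1.71. The endochitinase gene chiA had 531, 645 and 601 CPM in severe libraries, against 164, 146 and 160 CPM in well-watered ones (1.92 ± 0.09, FDR = 2.57e-08), and chiB had 6.92, 12.8 and 7.51 CPM, against 0.121, 0.0721 and 0.0973 CPM. DEF1, a defensin gene, fell to 122, 80.6 and 104 CPM, against 212, 232 and 210 CPM (-1.09 ± 0.12). Benzoxazinoids are the stored defence compounds of maize seedlings. Of the 11 genes of their synthesis tested 6 were higher and 1 lower: BX3 had 18.6, 45.6 and 18.4 CPM, against 0.212, 0.577 and 0.730 CPM (5.71 ± 0.45), BX4 had 30.0, 51.6 and 29.2 CPM, against 2.64, 3.51 and 3.02 CPM (3.59 ± 0.25), and BX14, a later methyltransferase, fell to 0.486, 1.25 and 1.32 CPM, against 20.9, 8.42 and 7.05 CPM (-3.58 ± 0.43, and -2.93 without well-watered replicate 1). The beta-glucosidase gene glu1, whose enzyme frees the toxins from their sugar, had the highest CPM of the list and did not pass the test (0.19 ± 0.08, FDR = 0.0635), at 7725, 8159 and 7708 CPM, against 7067, 7044 and 6523 CPM, although the groups did not overlap. In terpenoid synthesis 6 of 8 genes were higher, with the plastid pathway gene dxs2 at 17.1, 17.5 and 15.3 CPM, against 4.09, 3.44 and 4.18 CPM, while the farnesyl diphosphate synthase gene fps fell to 218, 173 and 199 CPM, against 317, 299 and 292 CPM.

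Protease genes also rose. Of 7 cysteine and vacuolar protease genes 6 were higher and 0 lower, with a median of 1.49. The cysteine protease gene mir3 had 262, 432 and 311 CPM, against 105, 108 and 104 CPM (1.66 ± 0.14, FDR = 2.43e-06), its relative mir2 had 147, 297 and 207 CPM, against 64.4, 66.8 and 61.1 CPM (1.76 ± 0.19), and the legumain gene see2b had 16.0, 37.1 and 20.9 CPM, against 5.58, 5.89 and 5.69 CPM. Severe replicate 2 was the highest for all 3. Of 13 autophagy genes 6 were higher and 1 lower, among them Atg8b, at 42.9, 57.6 and 44.8 CPM, against 30.2, 31.2 and 31.6 CPM.

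A few further genes had the largest changes among all named genes. The chalcone synthase gene c2, which opens flavonoid synthesis, had 10.3, 45.2 and 17.8 CPM under severe deficit, 3738 reads in all, and 0 reads in the well-watered libraries, at least 984-fold higher with 3 reads over the group as the floor, and at least 517-fold without severe replicate 2. The germin-like gene GLP2 had 21.4, 155 and 50.8 CPM, against 2 reads in the well-watered libraries together, a ratio of 4624 with an exact 95% interval for counting error from 1280 to 38184. Without severe replicate 2 the ratio was 1935, and without well-watered replicate 2, which held both reads, the gene was at least 1974-fold higher. The fitted log2 fold changes depend on the prior count and are not given. Both genes were highest in severe replicate 2 and present in all 3 severe libraries. Beside lox1, AGA1, BURP3 and gst1, the called genes with the largest rises in CPM included phytase2, which releases phosphate from phytate, at 532, 1216 and 694 CPM, against 44.5, 52.6 and 27.0 CPM (4.30 ± 0.31). Among the 10 largest falls in CPM of called genes were 6 genes without a name in the reference, such as AC187262.4_FG007, at 924, 561 and 710 CPM, against 1762, 1748 and 1757 CPM (-1.26 ± 0.15), and GRMZM2G120962, at 1246, 1038 and 1195 CPM, against 2154, 2148 and 2083 CPM (-0.88 ± 0.08).

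Counted per transcript in place of per gene, 13754 of 46599 transcripts (29.5%) differed, 7634 (16.4%) of them higher and 6120 (13.1%) lower under severe deficit. Every transcript with a deposited CPM was tested, without the filter on low counts used for genes, so the 2 shares are not like for like. With at least 1 CPM in 3 libraries, 35.1% of transcripts and 58.9% of genes were called. The median transcript had 13.7% of its reads to itself. Of the called transcripts, 13075 belonged to genes that were also called. The share of all tested transcripts that belong to called genes was not counted. Of 9863 genes with 2 or more tested transcripts, 82 had transcripts called in both directions. In 3 of these both had at least 5 CPM in 1 group and at least 20% unique reads. In GRMZM2G066820 (chromosome 2, 24291590 to 24295758) transcript T01 had 20.8, 21.6 and 24.0 CPM in severe libraries, against 11.2, 13.2 and 11.7 CPM in well-watered ones (0.88 ± 0.11, FDR = 3.41e-04). Its transcript T02 had 20.7, 15.9 and 17.3 CPM, against 59.6, 63.1 and 58.3 CPM (-1.75 ± 0.12, FDR = 1.50e-05), and the 2 transcripts are of like length, 2125 and 2103 bases. In GRMZM2G167103 (chromosome 4, 241166057 to 241172570) T01 was higher by 1.66 ± 0.28 and T02 lower, at 97.9, 85.7 and 97.6 CPM, against 144, 136 and 147 CPM. The third gene was the annexin gene Ann6, whose T01 had a mean of 698 CPM under severe deficit and 605 CPM well-watered and was higher by 0.21 ± 0.06, while T02 had a mean of 4.93 CPM under severe deficit and 8.71 CPM well-watered and was lower by a log2 fold change of -0.82 ± 0.15.

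The mild deficit libraries were not compared here. Their mean lay between the severe and the well-watered means in 10020 of the 14443 called genes. These genes were picked by the gap between those means, which favours such a place, and the share over all genes tested was not counted. The count therefore does not show a stepwise response.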

How the data were processed

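Total RNA libraries of root tips were prepared with a polyadenylated RNA kit and sequenced on an Illumina NextSeq. Per the study's methods, the authors trimmed reads, kept those of at least 36 nt, mapped them with CLC Workbench to B73 RefGen_v3 and tested them with edgeR. The deposited tables hold whole-number read counts per transcript (total and unique to the transcript), TPM from the authors' mapping and, for 46599 of 63074 transcripts, CPM, which the counts reproduced within 5e-07. Whether strand was used, and how reads shared between near-identical genes were assigned, is not given in the sources used here; all 23043 genes with 1 transcript and a read had as many unique as total reads, so the unique column speaks of transcripts of a gene, not of gene copies.

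Total transcript reads were summed by Gene ID (39323). Genes passing filterByExpr (26048) were tested with edgeR 4.0.16 in R 4.3.3: TMM factors, quasi-likelihood fit over all 9 libraries without a block, contrast severe deficit minus well-watered, Benjamini-Hochberg FDR below 0.05. Printed CPM are TMM-scaled; 3 replicates per group limit precision. On simulated counts for these 26048 genes the fit found 94% of 2-fold rises and 84% of 2-fold falls, with 50 genes changed per fold. Only genes with a mean of at least 50 reads were changed, so the shares do not cover genes of low counts. Far fewer genes changed there than the 55.4% called here. Symbols came from the file names and, for 18844 matched IDs, from RefSeq's Zm-B73-REFERENCE-NAM-5.0 table, whose coordinates were not used. The 50 gene lists and 5 marker lists (1178 genes) were assembled from these symbols; members, lists and tests were chosen with earlier results of these data known. Named genes are the 15 highest and 15 lowest fold changes among known, called, non-overlapping genes with a mean of at least 5 CPM, the 10 largest rises and falls in CPM, leading members of each list, and genes with transcripts called in opposite directions. Whether the replicate numbers pair the groups is not given in the sources used here. Deviations of same-numbered severe and well-watered libraries correlated at 0.06 and 0.06, those of the other pairs at -0.09 to 0.03. With 3 replicates per group these values cannot decide it. Intervals and floors (3 reads over a group) cover counting error only. Alternatives were unique reads, 2 other filters, other scalings, 6 libraries only, a replicate block, each library left out, DESeq2 1.42.0, a newer edgeR method and FDR below 0.01; each list was also counted without severe replicate 2 and without TMM.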

Additional observations from a re-analysis of the deposited data

Results flagged for a closer look

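Among the genes that the filter on low counts kept out of the test, 12 had at least 100 reads in severe deficit replicate 2 and at most 3 reads in each of the other 8 libraries, the well-watered ones included. No other library held such a gene. The highest were GRMZM2G102138 with 805 reads and its neighbour on chromosome 2, GRMZM2G152189, with 664 reads, followed by GRMZM2G351469 with 469 reads, GRMZM2G054332 with 428 reads and GRMZM2G070178 with 344 reads. The remaining 7 were GRMZM2G011347 with 172 reads, GRMZM2G020500 with 161 reads, GRMZM2G094860 with 156 reads, GRMZM2G073764 with 144 reads, GRMZM2G118770 with 125 reads, GRMZM2G163925 with 119 reads and GRMZM2G015603 with 117 reads. They were picked out because a signal appeared in data that the comparison left out. The reference gives none of them a name.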

How the results depend on the processing

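The gene counts kept within 1.5 times their main values of 7200 higher and 7243 lower under all 16 alternatives. Leaving out 1 library gave 6587 to 7553 genes higher and 6132 to 7201 lower, and 6017 to 7386 transcripts higher and 4641 to 6142 lower. Scaling by library size alone gave 9165 genes higher and 4941 lower. Transcript counts moved with a replicate block, to 4527 higher and 2926 lower, and at FDR below 0.01, to 4700 higher and 3466 lower; the cause was not tested. With the block, genes numbered 6115 higher and 5754 lower, and whether the numbers pair the samples is not known. The block kept 80.5% of the main gene calls and 51.6% of the main transcript calls. DESeq2 called 7020 genes higher and 6658 lower. The alternatives were followed for 132 named genes, not for every gene named in the text. Of the 128 called genes among these, 126 kept direction and call under each of the 16 alternatives that tested them. The exceptions were hsp70-4 with the block (-0.38) and Ann6 (0.11 to 0.20), which lost the call. Some named genes that were not called in the main fit gained a call in the same direction. Gains numbered 1 under DESeq2, 1 with at least 1 CPM in 3 libraries, 1 without severe replicate 1 and 1 without severe replicate 2. Without TMM scaling 2 gained it, PIP1-1 among them. Without severe replicate 2, list counts (higher and lower) that moved by over 1.5 times were starch 9 and 1, expansins 11 and 0, jasmonate 17 and 5, WRKY 5 and 2, defence 14 and 1, and benzoxazinoids 7 and 2. Without TMM they were ER folding 2 and 13, iron 6 and 0, cytoskeleton 3 and 15, ribosomal proteins 3 and 28, nitrogen 12 and 1, autophagy 8 and 0, NF-Y 4 and 1, and annexins 5 and 0, with those given above for auxin, MYB, WRKY, expansins and starch (10 and 1) and defence (15 and 1). The lowest-level genes rest on few reads, and 3 libraries per group limit each fold change.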
